A study of Mus musculus with 12 samples.

Results

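Apolipoprotein E and its lipid-handling partners were followed through 4 sorted stromal populations of the mouse thymus. The 9 genes were Apoe, Clu and Pltp, the receptors Vldlr, Lrp8, Lrp1 and Scarb1, and the exporters Abca1 and Abcg1. They were found by symbol among the 23306 symbols of the deposited table, and all 9 were among the 14792 genes tested. They were chosen because, in earlier results of these data, Apoe and Vldlr went opposite ways with the reporter in endothelium and in epithelium. The reporter contrasts are therefore described for these genes without a test. Only the contrast of endothelium with epithelium, which the choice did not use, was tested for them.

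The animals were C57BL/6 mice with a KitL-tomato reporter, which marks cells that express Kit ligand (Kitl), a growth factor for early T-cell progenitors. All 4 groups came from this reporter strain and were sorted from Lin- Dapi- thymic stroma. Tomato+ VEC and tomato- VEC were vascular endothelial cells gated as EpCAM- CD31+. Tomato+ cTEC were cortical epithelial cells gated as EpCAM+ CD31- UEA1- Ly51+, and tomato- mTEC were medullary epithelial cells gated as EpCAM+ CD31- UEA1+ Ly51-. Tomato+ and tomato- epithelium thus also differ by the Ly51 and UEA1 gate, so that reporter and cortical or medullary origin cannot be told apart. Each group had 3 libraries of amplified polyadenylated RNA. The labels used here do not say whether replicates came from separate mice. The p-values therefore reflect the spread among the 3 libraries of a group and nothing wider, and that spread may be technical.

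Apolipoprotein E is a lipid-binding protein that coats lipoprotein particles and carries them to lipoprotein receptors on cells. Abca1 and Abcg1 are membrane transporters that move cholesterol out of the cell, Abca1 onto lipid-poor apolipoproteins and Abcg1 to high-density lipoprotein. Liver X receptors, nuclear receptors activated by oxysterols, are known to raise Apoe, Abca1, Abcg1 and Pltp in macrophages and other cells.

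The promoters of Apoe, Vldlr and Abca1 are shown because these 3 genes were lower in tomato+ VEC and higher in tomato+ cTEC with no overlap of libraries. Promoters of RefSeq (GRCm38.p6), 250 bases before to 50 after a transcript start, were matched by symbol for 6 of the 9 genes, with 11 entries in all. The table used had none matched to Scarb1, Abcg1 or Clu. The entry farthest upstream is printed, 5′ to 3′ on the gene's own strand. It lies at chr7:19699139-19699438 (minus strand) for Apoe, at chr19:27216234-27216533 (plus strand) for Vldlr and at chr4:53159846-53160145 (minus strand) for Abca1. Capitals mark matches to the motifs searched.
Apoe: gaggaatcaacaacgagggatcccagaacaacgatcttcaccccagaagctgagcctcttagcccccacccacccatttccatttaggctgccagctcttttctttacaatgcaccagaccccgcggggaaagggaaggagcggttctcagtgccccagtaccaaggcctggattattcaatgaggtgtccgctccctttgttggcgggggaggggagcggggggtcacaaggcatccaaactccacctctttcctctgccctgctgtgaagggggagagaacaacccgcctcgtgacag
Vldlr: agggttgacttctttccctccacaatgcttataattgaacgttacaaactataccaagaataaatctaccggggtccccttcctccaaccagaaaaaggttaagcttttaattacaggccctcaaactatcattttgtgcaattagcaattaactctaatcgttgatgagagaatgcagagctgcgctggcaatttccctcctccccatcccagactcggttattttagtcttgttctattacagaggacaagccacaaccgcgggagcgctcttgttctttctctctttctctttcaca
Abca1: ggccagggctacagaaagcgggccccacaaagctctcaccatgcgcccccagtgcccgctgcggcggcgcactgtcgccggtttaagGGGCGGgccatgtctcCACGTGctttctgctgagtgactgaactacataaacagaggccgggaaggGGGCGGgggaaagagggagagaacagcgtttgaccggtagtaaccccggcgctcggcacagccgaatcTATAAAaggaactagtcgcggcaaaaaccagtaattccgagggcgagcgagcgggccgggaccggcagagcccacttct

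Both strands of every promoter were searched, with no motif overlapping another in the windows printed. The liver X receptor element was spelled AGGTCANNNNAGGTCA and the sterol regulatory element is given by its name alone. Neither had a match in any of the 11 entries, also with up to 2 mismatches allowed in the first and 1 in the second. Elements with more mismatches were not searched for, so the lack of a match does not show that a promoter lacks such an element. Among 32851 mouse promoters of the same 300 bases, 0.0152% held the first exactly and 3.02% with mismatches, and 0.0913% and 1.95% held the second. Shorter motifs were added after the values were seen: the single nuclear receptor repeat AGGTCA (16.3% of all promoters), the E box CACGTG (7.15%), the GC box GGGCGG (35.7%) and the TATA box TATAAA (13.6%). The Abca1 window held GC boxes starting at -163 and -97, an E box at -147 and a TATA box at -29 from the transcript start, whereas the printed Apoe and Vldlr windows held none of them. Of the entries not printed, one of Apoe held TATA box matches at -100 and -96, on opposite strands and overlapping in a single stretch. One of Vldlr held a GC box at -42, and Abca1 had a single entry. These matches describe letters within the windows only.

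The libraries held 8388869 to 11807130 counts each. Genes behind the gates followed the sort. Pecam1 (CD31) averaged 2788 CPM in tomato+ VEC and 4213 CPM in tomato- VEC, against 36.8 CPM in tomato+ cTEC and 7.54 CPM in tomato- mTEC. Of Epcam, tomato+ VEC held 0 counts and tomato- VEC 3, while tomato+ cTEC averaged 239 CPM and tomato- mTEC 352 CPM. Enpep, which encodes Ly51, averaged 89.6 CPM in tomato+ cTEC, against 17.2 CPM in tomato- mTEC. Kitl averaged 1043 CPM in tomato+ VEC, against 438 CPM in tomato- VEC, and 222 CPM in tomato+ cTEC, against 22.0 CPM in tomato- mTEC. Mean Kitl was thus higher with the reporter within endothelium and within epithelium, but tomato- VEC held more than tomato+ cTEC. CPM here are read counts relative to TMM-scaled library size. A pair of libraries stood apart. Replicate 3 of tomato+ VEC scored 26.6 on the third principal component, against 75.2 and 84.0 for the other tomato+ VEC and -82.6 to -49.1 for tomato- VEC. Replicate 2 of tomato+ cTEC had 446 CPM over 9 endothelial markers, against 26.3 and 2.25 CPM in the other tomato+ cTEC, 26.2 to 72.7 CPM in tomato- mTEC and 9563 to 13060 CPM in endothelium.

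Apoe was high in all 4 populations and changed with the reporter in opposite directions. It had 435, 492 and 517 CPM in tomato+ VEC, against 3197, 3734 and 2039 CPM in tomato- VEC. It had 1631, 1246 and 1184 CPM in tomato+ cTEC, against 258, 348 and 784 CPM in tomato- mTEC. Every tomato+ VEC library was below every tomato- VEC library, and every tomato+ cTEC library was above every tomato- mTEC library. On the log2 scale the difference was -2.63 (SE 0.38) between tomato+ VEC and tomato- VEC, a 6.21-fold lower level, and 1.55 (SE 0.37) between tomato+ cTEC and tomato- mTEC, a 2.92-fold higher one. Without replicate 3 of tomato- mTEC, the highest of its group, the second difference was 2.19. The order of the groups was tomato- VEC, tomato+ cTEC, then tomato+ VEC and tomato- mTEC, whose libraries overlapped. In bulk samples such as these, fewer cells of a type and less RNA per cell cannot be told apart.

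Vldlr, the very low-density lipoprotein receptor, which binds apolipoprotein E-rich particles and reelin, was likewise highest in tomato- VEC and tomato+ cTEC, with a wider range. It had 0.208, 0.392 and 1.39 CPM in tomato+ VEC (18 counts in all), against 71.8, 196 and 141 CPM in tomato- VEC (3750 counts). It had 136, 97.4 and 32.3 CPM in tomato+ cTEC, against 8.00, 6.51 and 3.53 CPM in tomato- mTEC. Its lowest group was tomato+ VEC, near the limit of detection, and the libraries of tomato- VEC and tomato+ cTEC overlapped. The difference on the log2 scale was -7.64 (SE 0.87) between tomato+ VEC and tomato- VEC and 3.88 (SE 0.71) between tomato+ cTEC and tomato- mTEC. Without replicate 3 of tomato+ VEC, which held most of the group's counts, the first was -8.76. With limma-trend on log2(RPKM + 1) the endothelial difference was -3.84 and the epithelial one 2.69.

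Abca1, which loads cholesterol and phospholipid onto lipid-poor apolipoproteins, was the remaining gene of this opposite pattern. It had 681, 517 and 270 CPM in tomato+ VEC, against 1331, 1334 and 1131 CPM in tomato- VEC. It had 160, 118 and 84.3 CPM in tomato+ cTEC, against 47.4, 11.9 and 34.7 CPM in tomato- mTEC. Neither pair of groups overlapped, and all 4 groups kept apart from each other. The log2 difference was -1.37 (SE 0.45) in endothelium and 1.94 (SE 0.46) in epithelium, and the first was -1.02 without replicate 3 of tomato+ VEC. Over all tested genes, 1.37% (202 genes) were lower in tomato+ VEC and higher in tomato+ cTEC without overlap, but the 9 genes were chosen on these contrasts and nothing is read from that share. For lower in both, as Abcg1 was, it was 2.12%.

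Markers of other cell types differed between the endothelial groups. The 6 lymphatic endothelial markers summed to 49.8 to 62.7 CPM in tomato+ VEC, with 4 to 5 of 6 counted, against 262 to 378 CPM in tomato- VEC, with 5 of 6 counted. Flt4 gave most of the tomato+ VEC sums, with 53.2, 48.3 and 61.4 CPM. The highest marker in tomato- VEC was Ccl21a, with 264, 277 and 77.3 CPM. Ccl21a is not particular to lymphatic cells here, with 3168 to 4781 CPM in tomato- mTEC. Lyve1 was at 0 in all 3 tomato+ VEC libraries and averaged 55.6 CPM in tomato- VEC, while Prox1 was at 0 in 2 libraries of each group. The 12 macrophage markers summed to 44.8 to 105 CPM in tomato+ VEC and 29.0 to 114 CPM in tomato- VEC, and Emr1, C1qb, C1qc, Timd4 and Vsig4 had no count in any of the 6. In tomato+ cTEC they summed to 24.8 to 163 CPM, against 387 to 439 CPM in tomato- mTEC, mostly Lyz2. The part of these cells in the values of Apoe, Vldlr and Abca1 was not tested.

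**Figure D1:**
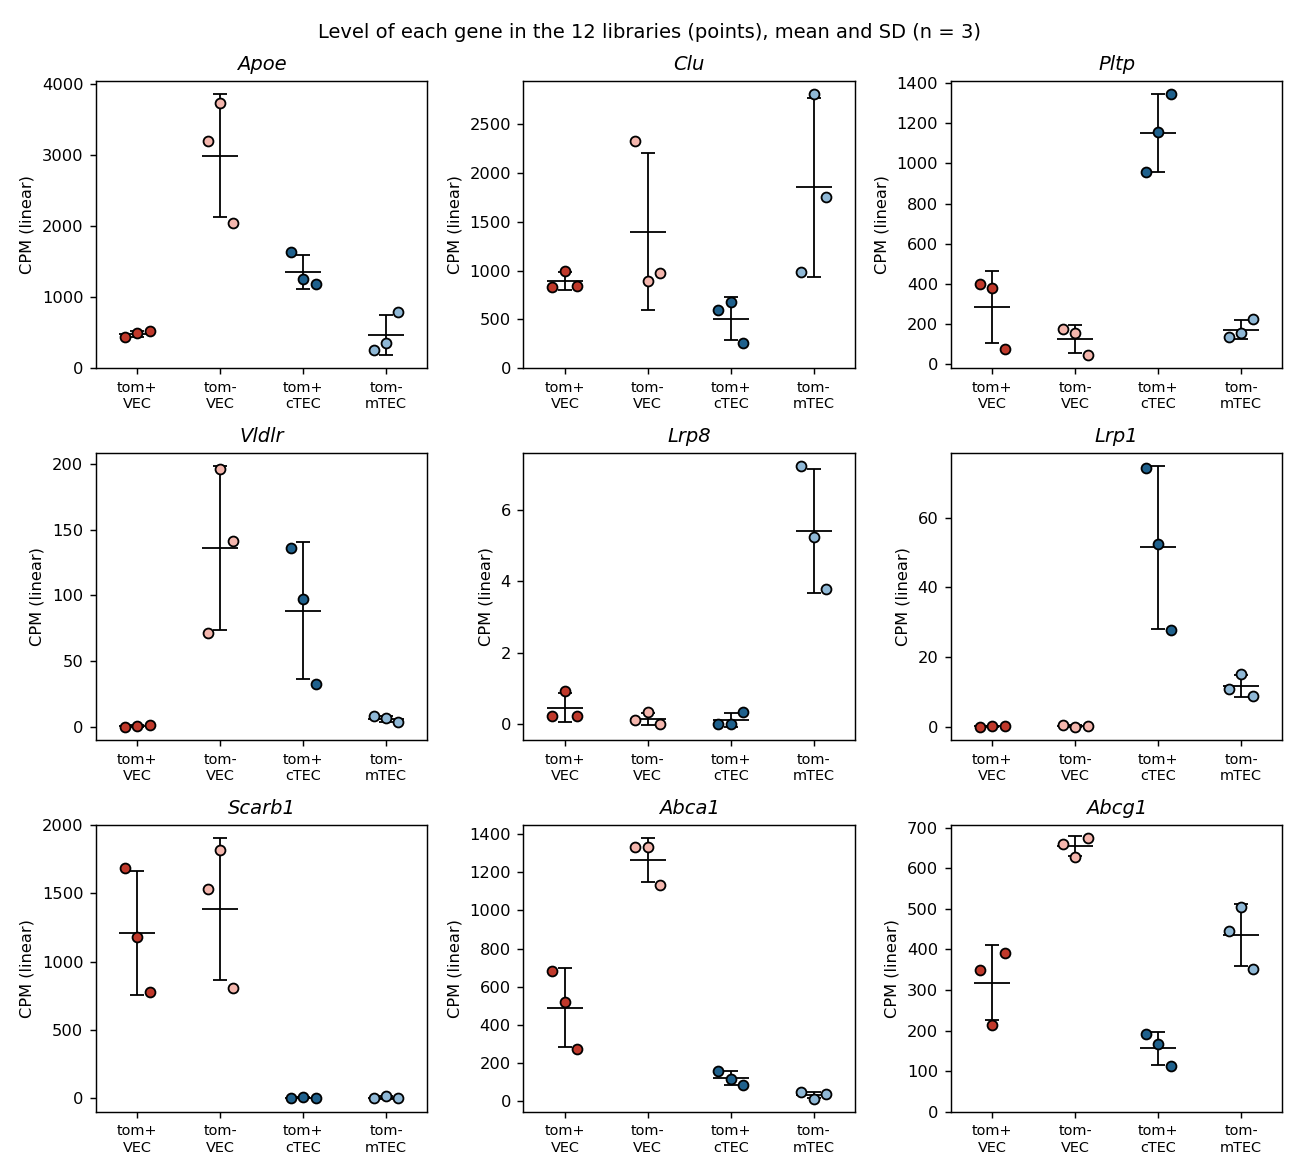
Level in CPM (linear axes, each with its own range) of the 9 genes in each of the 12 libraries (points), with the mean (long line) and SD (bars, n = 3) of each group. Apoe and Vldlr were higher in tomato- VEC and tomato+ cTEC than in the other groups, Lrp8 had its counts nearly all in tomato- mTEC, and Scarb1 was high in both endothelial groups.

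Among the other lipid carriers, Clu (clusterin, also apolipoprotein J, a secreted chaperone) and Pltp (the phospholipid transfer protein of plasma lipoproteins) departed from Apoe. Pltp had 398, 378 and 75.7 CPM in tomato+ VEC, against 172, 156 and 44.7 CPM in tomato- VEC, and these groups overlapped. It had 956, 1154 and 1344 CPM in tomato+ cTEC, against 136, 155 and 225 CPM in tomato- mTEC. Tomato+ cTEC thus stood above every other library, with log2 differences of 2.74 (SE 0.60) in epithelium and 1.19 (SE 0.57) in endothelium. Clu had 837, 1000.0 and 847 CPM in tomato+ VEC, against 2333, 894 and 975 CPM in tomato- VEC. It had 592, 679 and 255 CPM in tomato+ cTEC, against 986, 2816 and 1756 CPM in tomato- mTEC. Tomato+ cTEC had the lowest Clu of the 4 groups with no overlap, a log2 difference of -1.87 (SE 0.47) from tomato- mTEC. The endothelial difference of -0.65 (SE 0.46) rested on replicate 1 of tomato- VEC and was -0.05 without it. The 4 platelet markers summed to 3.32 to 18.3 CPM in tomato+ VEC, with 2 of 4 counted, against 184 CPM in that replicate, with all 4 counted, and 9.35 and 3.36 CPM in the other tomato- VEC. They summed to 0.196 to 1.38 CPM in tomato+ cTEC, with Gp9 and Ppbp at 0, against 3.86, 70.7 and 19.1 CPM in tomato- mTEC, where replicate 2 was the highest for Clu too; the epithelial difference of Clu was -1.41 without that replicate. The part of platelet RNA in the Clu values was not tested.

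Of the receptors, Lrp8 and Lrp1 were highest in different epithelial populations. Lrp8, the apolipoprotein E receptor 2 that also binds reelin, had 75, 45 and 47 counts in tomato- mTEC, a mean of 5.41 ± 1.74 CPM (SD, n = 3). The other groups had 11 counts in tomato+ VEC, 4 in tomato- VEC and 4 in tomato+ cTEC over all 3 libraries, and their libraries overlapped. All 4 counts of tomato+ cTEC came from its replicate 3. The log2 difference between tomato+ cTEC and tomato- mTEC was -5.38 (SE 1.68). With limma-trend on log2(RPKM + 1), a scale that understates changes of low genes, it was -0.80. Without replicate 3 tomato+ cTEC had 0 counts, and the fitted value of -8.68 is no bound. Lrp1, a large endocytic receptor for remnants of lipoproteins and for protease complexes, had 74.3, 52.4 and 27.7 CPM in tomato+ cTEC, against 10.9, 15.2 and 9.06 CPM in tomato- mTEC. This was a log2 difference of 2.13 (SE 0.69) with no overlap. Lrp1 was nearly undetected in endothelium, where tomato+ VEC held 8 counts and tomato- VEC 9.

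Mesenchymal cells also express Lrp1, and the list of 10 mesenchymal and pericyte markers summed to 1991 to 2330 CPM in tomato+ cTEC, against 819 to 1081 CPM in tomato- mTEC, with all 10 counted in each library. It summed to 21.7 to 57.4 CPM in endothelium. Decorin (Dcn) gave most of the tomato+ cTEC sum with a mean of 1864 CPM, whereas Pdgfra averaged 3.88 CPM and Col1a1 6.79 CPM there. By library, Dcn was 2057 of 2251, 1976 of 2330 and 1559 of 1991 CPM. In tomato- mTEC it was 237 of 819 CPM in replicate 1 and 370 of 1081 CPM in replicate 3. Rgs5 led in replicate 2, with 434 of 999 CPM. Without Dcn the list thus summed lower in tomato+ cTEC than in tomato- mTEC. The part of such cells in the Lrp1 values was not tested.

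Scarb1, the high-density lipoprotein receptor, and Abcg1, which exports cholesterol to high-density lipoprotein, did not share the opposite pattern. Scarb1 had 1682, 1179 and 777 CPM in tomato+ VEC, against 1529, 1820 and 806 CPM in tomato- VEC. It had 1.38, 7.94 and 2.08 CPM in tomato+ cTEC, against 0.193, 14.3 and 0.561 CPM in tomato- mTEC. The groups overlapped within endothelium and within epithelium, and the sign of the epithelial difference depended on a library: it was -0.38 (SE 1.08) with all libraries, 3.27 without replicate 2 of tomato- mTEC and -1.50 without replicate 2 of tomato+ cTEC. Abcg1 had 350, 214 and 391 CPM in tomato+ VEC, against 661, 628 and 676 CPM in tomato- VEC. It had 190.5, 166 and 112 CPM in tomato+ cTEC, against 446, 506 and 353 CPM in tomato- mTEC. Both tomato+ groups were below their tomato- counterparts without overlap, by log2 differences of -1.04 (SE 0.27) in endothelium and -1.48 (SE 0.27) in epithelium.

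Counted over the 9 genes, libraries did not overlap for 0 higher and 4 lower in tomato+ VEC (Apoe, Vldlr, Abca1 and Abcg1), where 7.46% and 8.32% of all tested genes did so. In tomato+ cTEC 5 were higher (Apoe, Pltp, Vldlr, Lrp1 and Abca1) and 3 lower (Clu, Lrp8 and Abcg1), where 18.7% and 20.3% of all tested genes did so. Nothing is read from these counts, since the contrasts chose the genes.

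**Figure D2:**
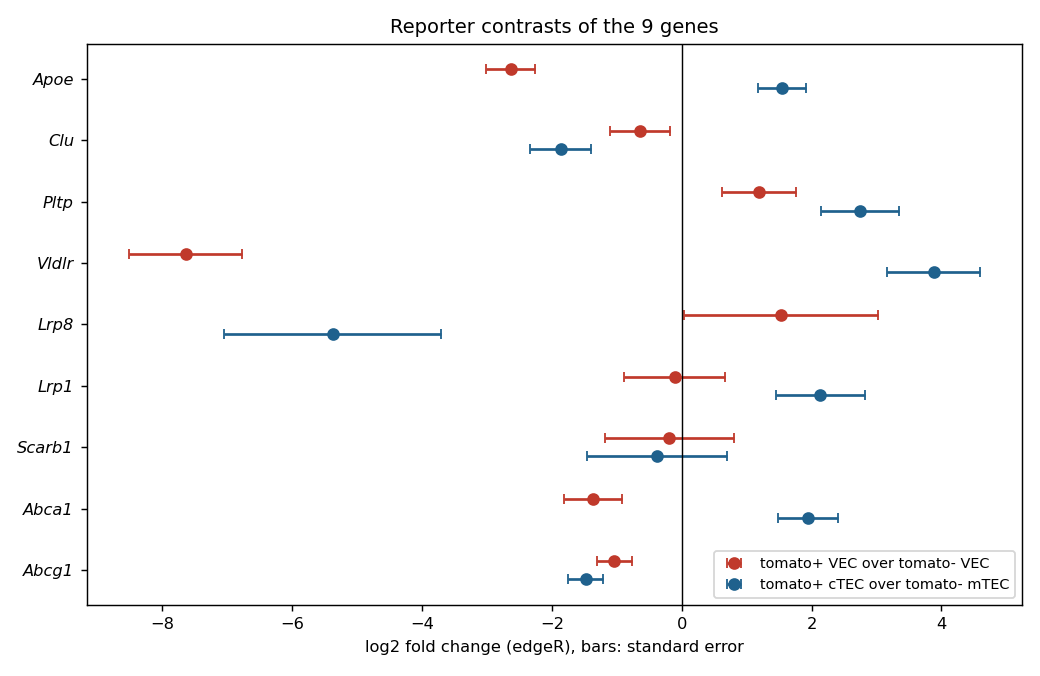
Difference on the log2 scale of each of the 9 genes for tomato+ VEC over tomato- VEC and for tomato+ cTEC over tomato- mTEC (points), with its standard error (bars). Apoe (-2.63 and 1.55), Vldlr (-7.64 and 3.88) and Abca1 (-1.37 and 1.94) lie on opposite sides of 0. So do Lrp1 (-0.11 and 2.13) and, in the reverse sense, Lrp8 (1.53 and -5.38), both with overlapping endothelial groups. Abcg1 (-1.04 and -1.48) lies below 0 in both, as do Clu and Scarb1.

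Endothelium was then compared with epithelium, 6 libraries each, with edgeR's quasi-likelihood test over all 14792 genes and Benjamini-Hochberg adjustment. Of the 9 genes 3 were higher in endothelium (Scarb1, Abca1 and Abcg1), 2 were lower (Lrp1 and Pltp) and 4 did not pass an adjusted p of 0.05. Over all tested genes 14.4% were higher and 21.8% lower, 36.3% in either direction, so calls were common here. The median over all tested genes was -0.18 on the log2 scale, and -0.31 under relative log expression scaling. The median of the 9 genes was 0.21.

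Scarb1 was higher in endothelium by 8.23 on the log2 scale (SE 0.97, edgeR adjusted p 4.10e-05), a 300.2-fold difference, and all 6 endothelial libraries were above all 6 epithelial ones. The difference was 10.06 without replicate 2 of tomato- mTEC, 8.82 without replicate 2 of tomato+ cTEC and 10.60 without both. Abca1 was higher by 3.68 (SE 0.35, edgeR adjusted p 7.35e-06), or 12.8-fold, again with no overlap. Abcg1 was higher by 0.81 (SE 0.19, edgeR adjusted p 0.00533), although its libraries overlapped, and its call was lost when a term for lineage alone was fitted (adjusted p 0.195). Libraries did not overlap for 2 of the 9 genes higher and 1 lower, against 7.49% and 9.49% of all tested genes.

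Lrp1 was lower in endothelium 74.4-fold, a log2 difference of -6.22 (SE 0.60, edgeR adjusted p 8.64e-06), in all 6 libraries. Pltp differed by -1.24 (SE 0.40, edgeR adjusted p 0.0291), although both endothelial groups overlapped tomato- mTEC. Its mean was 284 CPM in tomato+ VEC and 124 CPM in tomato- VEC, against 1151 CPM in tomato+ cTEC and 172 CPM in tomato- mTEC. Its call was lost without replicate 3 of tomato- VEC, of tomato+ cTEC or of tomato- mTEC and with a term for lineage alone, at adjusted p up to 0.0742. Apoe (0.60, SE 0.25, edgeR adjusted p 0.0877), Vldlr (-1.26, SE 0.48, adjusted p 0.0598), Lrp8 (-1.65, SE 1.10, adjusted p 0.278) and Clu (0.21, SE 0.32, adjusted p 0.676) did not pass. Apoe passed without replicate 3 of tomato- VEC or of tomato- mTEC. Vldlr passed under DESeq2, under relative log expression scaling and without replicate 3 of tomato+ VEC or of tomato+ cTEC, but its mean CPM ran the other way, at 1.45 times that of epithelium, and its fitted difference turned to 0.54 with a term for lineage alone. Clu had 0.972 times the epithelial mean, also opposite to its log2 difference. Lrp8 passed only with limma-trend on RPKM, at either pseudocount.

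**Figure D3:**
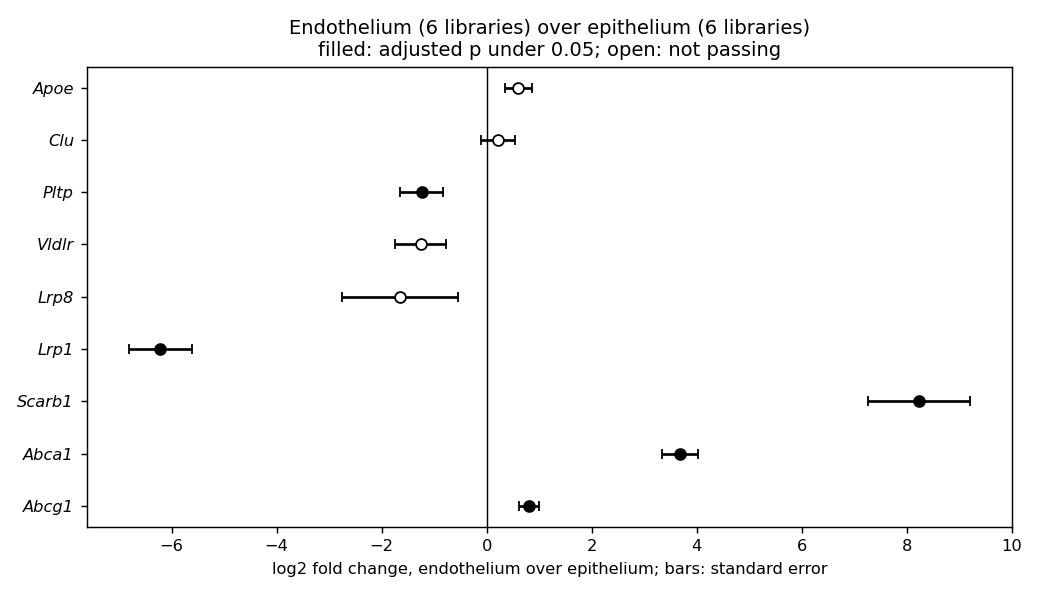
Difference on the log2 scale of each of the 9 genes, endothelium over epithelium (6 libraries each), with standard errors (bars). Filled points passed an adjusted p of 0.05 in edgeR: Scarb1, Abca1 and Abcg1 to the right of 0, Lrp1 and Pltp to the left.

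Levels were compared between genes as deposited RPKM, which are per transcript length. In tomato+ VEC the highest means were those of Clu (447 RPKM), Scarb1 (433 RPKM) and Apoe (348 RPKM). In tomato- VEC Apoe led with 2243 RPKM, ahead of Clu (723 RPKM) and Scarb1 (515 RPKM). In tomato+ cTEC Apoe (1200.0 RPKM) and Pltp (705 RPKM) led, and in tomato- mTEC Clu (1070.0 RPKM) and Apoe (390 RPKM). The carriers thus headed the 9 genes in epithelium, while Scarb1 stood among the first 3 only in the endothelial groups. The mean RPKM of Apoe lay above 99.1% to 99.9% of all genes in each group. Among Vldlr, Lrp1 and Lrp8, Vldlr led in tomato- VEC with 15.6 RPKM, against 0.0208 RPKM for Lrp1 and 0.0183 RPKM for Lrp8. It also led in tomato+ cTEC with 11.9 RPKM, against 3.84 RPKM for Lrp1 and 0.0173 RPKM for Lrp8. In tomato- mTEC the 3 were close together, at 0.762 RPKM for Vldlr, 0.826 RPKM for Lrp1 and 0.782 RPKM for Lrp8.

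**Figure D4:**
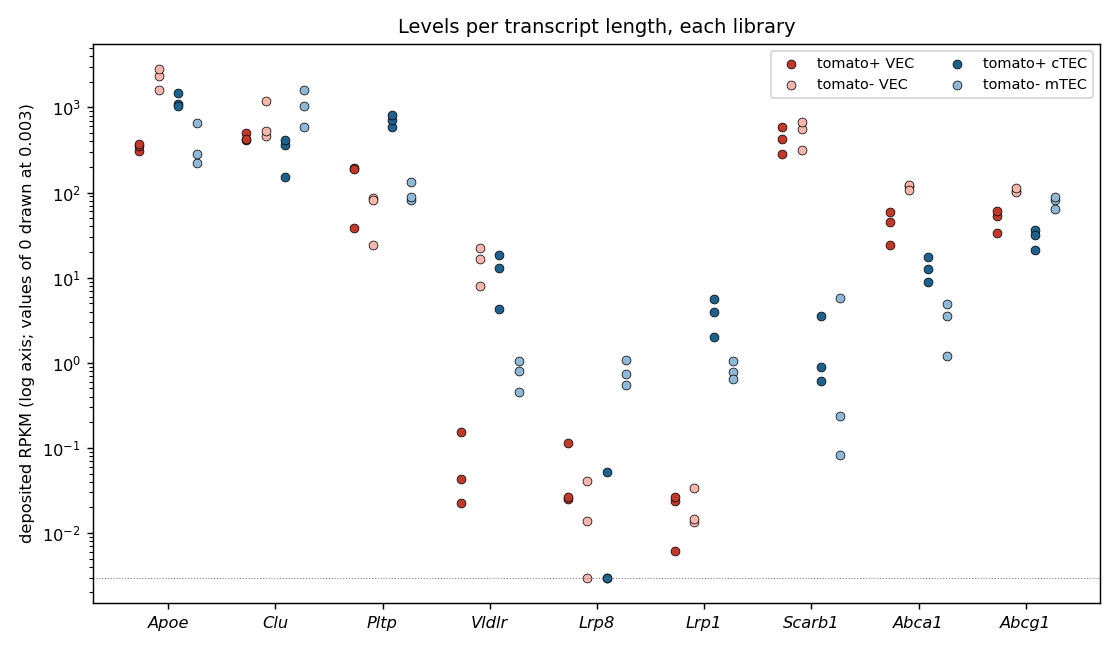
Deposited RPKM (log axis, values of 0 drawn at the dotted line at 0.003) of each gene in each library, coloured by group. By group mean, Apoe and Clu are among the first 3 of the 9 genes in every group, and Vldlr, Lrp8 and Lrp1 are the lowest 3 in both endothelial groups.

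Genes with the pattern most like that of Apoe were ranked over the 12 libraries among 11349 genes averaging at least 5 CPM, by Pearson's r of log2(CPM + 1), as a description. Among the first 5 were Lifr (r = 0.911), Gypc (0.904), A830082K12Rik (0.884) and Ccdc51 (0.877), with Vldlr 22nd at 0.826. For Vldlr they included Nr2f6 (0.947), Cpe (0.934), Efemp1 (0.902) and Ctsl (0.895), with Apoe 30th. Apoe and Vldlr were chosen for their shared pattern in these libraries, so nothing is read from their likeness to each other. Ctsl, the lysosomal protease cathepsin L, averaged 1020.0 CPM in tomato+ VEC and 5718 CPM in tomato- VEC, and 7214 CPM in tomato+ cTEC and 1810.0 CPM in tomato- mTEC. Abca1 correlated with Apoe at 0.599 and ranked 466th.

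The surrounding pathways were given from 10 lists with 113 genes, of which 112 were in the table and 98 were tested; Hmgcs1 is not analysed here. In tomato+ VEC 1 of the 98 was higher and 1 lower (2.04%), against 0.568% higher and 1.08% lower, 1.65% in all, over all tested genes. Lpl, lipoprotein lipase, averaged 239 ± 158 CPM in tomato+ VEC and 2.70 ± 2.96 CPM in tomato- VEC (SD, n = 3 each; log2 6.47, SE 1.22, edgeR adjusted p 0.0202). Nceh1, a cholesteryl ester hydrolase, averaged 0.838 ± 1.09 CPM in tomato+ VEC and 54.3 ± 50.5 CPM in tomato- VEC (log2 -6.03, SE 1.25, edgeR adjusted p 0.0325). Nceh1 lost its call without replicates 1 or 3 of either endothelial group, replicate 1 of tomato+ cTEC or any tomato- mTEC replicate. The call was also lost under voom, with limma-trend on log2(RPKM + 1), with the 6 libraries alone and with the replicate number as a block. Lpl lost its call without replicates 1 or 2 of tomato- VEC and with the replicate number as a block. Gpihbp1, the endothelial anchor of lipoprotein lipase, averaged 2542 CPM in tomato+ VEC and 508 CPM in tomato- VEC, and Cd36, a fatty acid and lipoprotein scavenger receptor, averaged 15320 CPM in tomato+ VEC and 4310 CPM in tomato- VEC, but neither passed (edgeR adjusted p 0.261 and 0.498).

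In tomato+ cTEC 4 of the 98 pathway genes were higher and 5 lower (9.18%), against 2.73% higher and 5.1% lower, 7.83% in all, over all tested genes. Higher were Lrpap1, the chaperone of the receptor family, Dab2, an adaptor that binds receptor tails, Insig1, which holds back sterol regulatory element binding proteins, and Lipa, the lysosomal acid lipase. Lipa averaged 48.6 ± 5.81 CPM in tomato+ cTEC and 13.4 ± 0.0490 CPM in tomato- mTEC (SD, n = 3 each; log2 1.86, SE 0.29, edgeR adjusted p 0.00290). Dab2 averaged 94.4 ± 36.9 CPM in tomato+ cTEC and 5.12 ± 4.93 CPM in tomato- mTEC (log2 difference 4.18, SE 0.80; adjusted p 0.00974 in edgeR). Lower were Apoa4, an intestinal apolipoprotein, Nr1h3 (liver X receptor alpha), the sterol transporter subunit Abcg5, the scavenger receptor Marco and the lipid transporter Abca7. Nr1h3 averaged 2.87 ± 2.16 CPM in tomato+ cTEC and 32.0 ± 6.16 CPM in tomato- mTEC (log2 difference -3.47, SE 0.86; adjusted p 0.0304 in edgeR), and lost its call without any single library of these 2 groups. Apoa4 had 3 counts in tomato+ cTEC and 1259 in tomato- mTEC, 436-fold lower (95% counting interval 149 to 2116). Marco had 0 counts in tomato+ cTEC and 202 in tomato- mTEC, at least 69.9-fold lower when a floor of 3 counts in the group is assumed. The Marco call was lost without any single library of these 2 groups and with the replicate number as a block. That of Abcg5 was lost without 5 of the 6, each left out singly. Lrpap1 lost its call without replicates 1 or 2 of either group, Dab2 without replicate 1 of tomato- mTEC and Insig1 without replicate 1 of tomato+ cTEC.

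The difference between the endothelial and the epithelial reporter contrast passed for 2 of the 98 genes, both higher (2.04%, against 1.54% higher and 1.54% lower, 3.08% in all, over all tested genes): Abca7 and Apoa4.

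Between endothelium and epithelium 17 of the 98 pathway genes were higher and 24 lower (41.8%), close to the 36.3% of all tested genes, with a median of -0.41 against -0.18. Of 12 other genes of the receptor family 1 was higher (Lrp10) and 6 were lower, with a median of -2.41. Sorl1, a sorting receptor, had 5 counts in endothelium and 3775 in epithelium, 635-fold lower (edgeR adjusted p 4.25e-07), and Lrp4 averaged 2.25 ± 1.97 CPM in endothelium and 107 ± 31.3 CPM in epithelium (SD, n = 6 each; edgeR adjusted p 0.000130). Lrp10 lost its call in 8 of 12 fits without a library, under relative log expression scaling and with limma-trend on RPKM at either pseudocount. It was also lost with the replicate number as a block. Lrp1b and Apoc2 lost their calls without replicate 3 of tomato+ cTEC. Of 5 tested apolipoproteins 3 were lower (Apoc1, Apoa4 and Apoc2): Apoc1, a neighbour of Apoe in the genome, had 24 counts in endothelium and 2855 in epithelium. Apoa4, Apoc2 and Lrp1b had 3, 27 and 23 counts in tomato+ cTEC, against 1259, 562 and 487 in tomato- mTEC. Their libraries overlapped between endothelium and epithelium, so these calls rest on the medullary group.

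Cholesterol synthesis had 1 of 19 tested genes higher (Ebp) and 6 lower, with a median of -1.46. For the list counts given here, the shares over all tested genes were 14.4% higher and 21.8% lower, with a median of -0.18. Sqle, squalene epoxidase, averaged 5.43 ± 4.48 CPM in endothelium and 79.8 ± 38.9 CPM in epithelium (SD, n = 6 each; log2 -3.83, edgeR adjusted p 0.00102). Of 7 tested sterol sensing genes Srebf1 was lower (adjusted p 0.0377 in edgeR), a call lost in 10 of 12 fits without a library and with no low-count filter, and the other 6 did not pass. Of 10 liver X and retinoid X receptor genes and other targets 3 were higher (Mylip, Nr1h3 and Nr1h2) and 2 lower (Abcg5 and Rxrg). Of these, Nr1h3 lost its call with a term for lineage alone, Nr1h2 without replicate 3 of tomato+ cTEC or replicate 1 of tomato- mTEC, and Abcg5 without replicate 3 of tomato+ cTEC. Abcg5 had 5 counts in tomato+ cTEC and 904 in tomato- mTEC, and its libraries overlapped between endothelium and epithelium. Mylip, the ligase that degrades receptors of this family, averaged 257 ± 53.1 CPM in endothelium and 63.3 ± 11.1 CPM in epithelium (SD, n = 6 each; log2 2.03, SE 0.19, edgeR adjusted p 5.91e-06).

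Of 9 scavenger receptors 3 were higher in endothelium (Stab1, Cd36 and Scarf1) and 2 lower (Cxcl16 and Colec12). Beside this and the following list counts, 14.4% of all tested genes were higher and 21.8% lower. Cd36 averaged 9817 ± 6272 CPM in endothelium and 56.2 ± 114 CPM in epithelium (SD, n = 6 each; log2 8.36, SE 1.14, edgeR adjusted p 0.000129), with 289 CPM in replicate 2 of tomato+ cTEC. Of 8 lipases and lipoprotein remodelling genes 2 were higher (Gpihbp1 and Angptl4). Colec12 lost its call in 9 of 12 fits without a library, under voom, with limma-trend on RPKM at either pseudocount, with the replicate number as a block and with a term for lineage alone (adjusted p up to 0.307). Angptl4 lost its call without replicate 1 of tomato- VEC, under voom and with a term for lineage alone (adjusted p up to 0.117). Gpihbp1 averaged 1525 ± 1187 CPM in endothelium and 5.00 ± 9.19 CPM in epithelium (log2 8.32, SE 0.91, edgeR adjusted p 2.25e-05). Of 8 further transporters 2 were higher (Abcb1a and Abca3) and 1 lower (Abca9, a call lost without replicate 1 of tomato- mTEC and with limma-trend on log2(RPKM + 1)). Of 12 genes of intracellular cholesterol transport Lipa was higher and Npc2 lower, and of 8 tested reelin signalling genes 4 were higher, among them Dab2, whose call was lost with a term for lineage alone, and 1 was lower. Fyn, a kinase of that pathway, averaged 150 ± 34.7 CPM in endothelium and 5.86 ± 1.86 CPM in epithelium (SD, n = 6 each; log2 4.67, SE 0.30, edgeR adjusted p 2.89e-07).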

How the data were processed

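Per the labels' protocols, cDNA of sorted thymic stromal cells was made from polyadenylated RNA with a SMARTer kit for low input. Alignment with TopHat2 2.0.10 and the build mm9 come from the submitters' processing notes; read counter, annotation and strand setting are not given in the sources. Read counts per gene symbol are deposited as whole numbers, and without strand information overlapping and antisense genes cannot be told apart. The deposited RPKM equalled the count divided by library total and gene length for all 180417 values tested (relative tolerance 1e-06). Intervals and floors cover counting error only, as the reads carry no molecular identifiers.

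Counts (1704 of 23306 symbols had none) entered edgeR 4.0.16 (R 4.3.3; filterByExpr, minimum count 10; TMM; 1 term per group; all 12 libraries; 8 residual degrees of freedom; biological coefficient of variation 0.790). A gene was called where its adjusted p (Benjamini-Hochberg) was under 0.05. No replicate pair agreed within sampling noise (chi-square per degree of freedom at least 41.4). Scripts were tested on simulated counts.

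The genes, lists and tests were chosen with earlier results of these data known. Named genes are the 9 genes, Kitl, Pecam1, Epcam and Enpep, up to 3 called genes per list, comparison and direction by smallest p (else the one with the highest mean CPM), leading markers, and the 5 genes most like Apoe or Vldlr; not all are described, and some are not reported here. Alternatives were DESeq2 1.42.0, limma 3.58.1 (voom, and limma-trend on log2(RPKM + 1) and log2(RPKM + 0.1)), robust dispersions, relative log expression scaling, a filter of at least 5 CPM in 3 libraries, none on low counts, the replicate block, only the 6 libraries compared, a term for lineage only, and each library left out. Leaving out replicate 2 of tomato+ cTEC and of tomato- mTEC together was chosen after seeing the data. Promoters are RefSeq (GRCm38.p6); no coordinates of the deposited build are used.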

Additional observations from a re-analysis of the deposited data

Results flagged for a closer look

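Libraries of Apoe, Vldlr and Abca1 moved in opposite directions in the endothelial and epithelial reporter contrasts without overlap. The difference of the contrasts, tomato+ over tomato- VEC minus tomato+ cTEC over tomato- mTEC, was -4.18 on the log2 scale for Apoe, -11.52 for Vldlr and -3.31 for Abca1. It was not tested, because these genes were chosen by it. The same difference passed edgeR's quasi-likelihood test for Abca7 (7.83, adjusted p 0.00589) and Apoa4 (9.41, adjusted p 0.0197). Abca7 averaged 19.0 CPM in tomato+ VEC and 3.06 CPM in tomato- VEC, and 0.578 CPM in tomato+ cTEC and 21.7 CPM in tomato- mTEC. Apoa4 lost this call in 5 of 12 fits without a library, at adjusted p up to 0.0654.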

How the results depend on the processing

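For the 9 genes no direction of a called value reversed under the alternatives run, and the calls that were lost or gained are given with the genes. Of the 9, those lower in endothelium numbered 2, and 1 with a term for lineage only and without replicate 2 of both tomato+ cTEC and tomato- mTEC (chosen after seeing the data); single libraries left out gave 1 to 3, with 1 without replicate 3 of tomato- VEC or of tomato- mTEC. Those higher numbered 3, and 2 to 4 over all fits. Between endothelium and epithelium 4423 to 6506 genes were called (5363 in the report's fit) and 35 to 56 pathway genes (41), leaving aside the fit without both replicates 2, which called 4310 and 32.

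Counts of the reporter contrasts moved more. In tomato+ VEC 244 genes and 2 pathway genes were called; DESeq2 called 1253 and 10, voom 601 and 5, log2(RPKM + 1) 473 genes, log2(RPKM + 0.1) 447 genes the 6 libraries alone 112 genes and the fit without both replicates 2 163 genes. In tomato+ cTEC 1158 genes and 9 pathway genes were called; DESeq2 called 1973 and 17, voom 2219 and 15, log2(RPKM + 1) 2530 and 15, log2(RPKM + 0.1) 2172 genes, the 6 libraries alone 2487 and 21, and the fit without both replicates 2 297 and 4. For the difference of the contrasts 456 genes and 2 pathway genes were called; DESeq2 called 1418 and 11, voom 1309 and 10, log2(RPKM + 1) 1766 and 10, log2(RPKM + 0.1) 1529 and 9, no low-count filter 4 pathway genes, and the fit without both replicates 2 160 and 1. The causes were not tested. Leaving out single libraries gave 174 to 394 genes and 1 to 3 pathway genes in tomato+ VEC (394 without its replicate 3), 428 to 1193 and 4 to 12 in tomato+ cTEC, and 159 to 491 and 1 to 4 for the difference. In tomato+ cTEC every library of that contrast left out moved the gene count by over 1.5 times; for the difference so did replicate 1 of tomato- VEC, replicates 1 and 3 of tomato+ cTEC and every tomato- mTEC replicate.

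Deviations of same-numbered libraries correlated at -0.0136 to 0.0768 in 18 pairs, against -0.0602 to 0.0286 for libraries with different numbers. The correlations were weak, and whether replicate numbers pair the libraries cannot be told from them. With the replicate number as a block 0 pathway genes were called in tomato+ VEC, since Lpl and Nceh1 lost their calls; so did Marco in tomato+ cTEC and Lrp10 and Colec12 between endothelium and epithelium. The block left 269 genes called for the difference of the contrasts. Counts below about 20 per group, as for Vldlr and Lrp1 in tomato+ VEC and Lrp8 outside tomato- mTEC, limit what can be said of those levels.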
